A study of Mus musculus with 4 samples.

Results

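The genes described here code for the enzymes of central carbon metabolism, which carry glucose through glycolysis, the pentose phosphate pathway, the pyruvate dehydrogenase complex and the tricarboxylic acid (TCA) cycle, together with malic enzymes and enzymes of gluconeogenesis. They were chosen by name, as 51 mouse gene symbols, and each was measured by every probe whose accession maps to its symbol. Of the 51 genes, 50 had a probe (76 probes in all), and no probe mapped to Rpia, the ribose-phosphate isomerase. The 50 were among 21045 genes tested. RNA came from gastric tumours that 30-week-old K19-Wnt1/C2mE animals had formed, where transgenes driven in the keratin 19-positive stomach epithelium supply Wnt1, cyclooxygenase-2 and microsomal prostaglandin E synthase. Both groups carry these transgenes. The tumours were dissociated, lineage marker-negative (Lin-) cells were sorted, and the groups were Lin- CD44+ cells (2 arrays) and Lin- CD44- cells (2 arrays). The lineage markers and the number of mice behind a sample are not given in the sources used here, so p-values reflect only how far these samples differ among themselves, possibly for technical reasons.

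Glycolysis splits glucose to pyruvate in the cytosol and yields ATP and NADH, and lactate dehydrogenase regenerates the NAD that it needs. Pyruvate enters the mitochondrion, where the pyruvate dehydrogenase complex turns it into acetyl-CoA for the TCA cycle, and pyruvate dehydrogenase kinases switch that complex off by phosphorylating it. The pentose phosphate pathway branches off at glucose phosphate and yields NADPH and ribose, while malic enzymes also make NADPH. Many tumours run glycolysis at a high rate even where oxygen is present, and hypoxia-inducible factor raises the transcription of many glycolytic genes.

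Levels are given as the log2 of an array's processed signal relative to that array's 75th percentile, so that 0 is the 75th percentile and 1 unit is a 2-fold step. The 75th percentile itself, taken over probes, was a signal of 244 and 493 on the CD44+ arrays and of 406 and 527 on the CD44- arrays, and 53.1% to 69.6% of spots were well above background. Over all genes tested, CD44- replicate 2 stood furthest from CD44+ replicate 1 (Pearson correlation 0.877), while the other pairs of arrays correlated at 0.927 to 0.965. That array also had the highest summed level of fibroblast markers, at 12.2 and 47.3 times the 75th percentile on the CD44+ arrays against 78.3 and 462 times on the CD44- arrays. Cd44, the sorted antigen, had log2 levels of 6.31 and 6.54 in CD44+ cells and of 4.26 and 5.11 in CD44- cells. Of the 50 enzyme genes, 49 were well above background on all 4 arrays and Eno2 on 3.

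Most enzyme genes differed little between CD44+ and CD44- cells, and Pdk4 was the exception. The log2 difference, CD44+ minus CD44-, lay within 2-fold for 47 of the 50 genes, and the other three, Pdk4, Eno2 and Fbp1, were lower in CD44+ cells without overlap of the groups. Pdk4, which codes for a pyruvate dehydrogenase kinase, fell in CD44+ cells and was the only enzyme gene to pass an adjusted p of 0.05 in limma (Benjamini-Hochberg over all genes tested). That is 1 of 50 genes, beside 0.399% of all genes tested (0.375% lower and 0.0238% higher in CD44+ cells). An unadjusted p under 0.05 was reached by 3 of the 50, all of them lower in CD44+ cells, against 10.8% of all genes (7.9% lower and 2.86% higher).

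The median log2 difference over the 50 genes was 0.39, against 0.16 over all genes tested, and 42 of the 50 were above 0, against 60.6% of all genes. The values behind that median were small beside their errors, with a median standard error of 0.51. The groups did not overlap for 7 genes higher in CD44+ cells (Tpi1, Pgk1, Pgam1, Pdk2, Pgls, Idh3g and Pck2) and for the 3 lower ones. These 10 of 50 stand beside 39.6% of all genes whose groups did not overlap, with 22.4% higher and 17.2% lower. A difference of at least 2-fold without overlap was found for 0 genes higher and 3 genes lower in CD44+ cells, against 13.5% of all genes (3.8% higher and 9.66% lower).

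**Figure D1:**
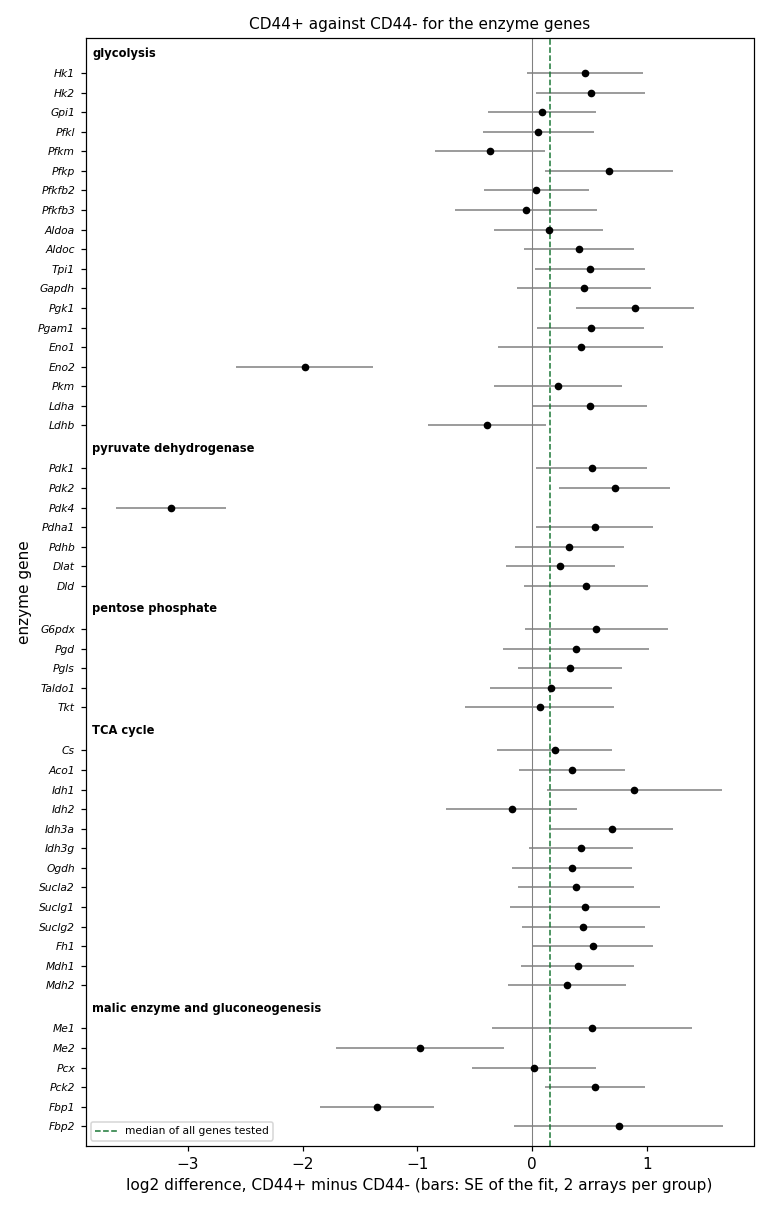
Log2 difference between CD44+ and CD44- cells (x axis, log2 units) for each of the 50 enzyme genes (y axis), grouped by pathway. Points are fitted differences, bars are standard errors (2 arrays per group), and the dashed line is the median of all genes tested, 0.16. Most genes lie between 0 and 1, and Pdk4 (-3.15), Eno2 (-1.98) and Fbp1 (-1.35) lie apart to the left.

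The kinases of pyruvate dehydrogenase had log2 differences on either side of 0. Pdk4, a kinase whose transcription in muscle and liver rises in fasting, had log2 levels of -0.70 and -1.46 in CD44+ cells and of 2.18 and 1.94 in CD44- cells. Its processed signals were 150 and 179 in CD44+ cells against 1841 and 2027 in CD44- cells, so both CD44+ arrays lay far below both CD44- arrays. The log2 difference was -3.15 ± 0.48 (SE, n = 2 arrays per group), or 8.86-fold lower in CD44+ cells, with an adjusted p of 0.0461 in limma. The call was lost with no filter on dim probes (adjusted p = 0.173), with quantile normalization (0.123), and without CD44+ replicate 1 (0.200) or CD44+ replicate 2 (0.224), where the log2 differences were -3.53 and -2.77. In fits that leave out an array, the lone array of a group is assumed to vary like the other group. Pdk2, the kinase found in most tissues, had log2 levels of -2.01 and -2.01 in CD44+ cells and of -2.30 and -3.16 in CD44- cells. Pdk1, a target of hypoxia-inducible factor, had 1.62 and 1.04 in CD44+ cells and 1.13 and 0.50 in CD44- cells. Their log2 differences of 0.72 ± 0.48 (Pdk2) and 0.52 ± 0.48 (Pdk1) did not pass the test, with limma adjusted p of 0.746 and 0.797.

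The RefSeq promoter windows of Pdk4 and Pdk1 (GRCm38.p6, 250 bases before to 50 after the transcript start) are shown because these kinases lay on opposite sides of 0, and that of Pgk1 because it had the highest log2 difference of the 50 genes. The Pdk4 window is chr6:5496229-5496528 on the minus strand, that of Pdk1 is chr2:71872974-71873273 on the plus strand, and that of Pgk1 is chrX:106186850-106187149 on the plus strand. Capitals mark the core of the hypoxia response element, ACGTG or GCGTG on either strand.
Pdk4: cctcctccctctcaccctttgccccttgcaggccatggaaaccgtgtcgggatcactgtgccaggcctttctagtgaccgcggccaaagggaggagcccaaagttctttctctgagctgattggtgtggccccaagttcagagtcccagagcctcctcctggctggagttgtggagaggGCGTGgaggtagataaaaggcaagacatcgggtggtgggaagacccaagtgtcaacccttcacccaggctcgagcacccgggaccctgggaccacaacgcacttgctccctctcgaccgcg
Pdk1: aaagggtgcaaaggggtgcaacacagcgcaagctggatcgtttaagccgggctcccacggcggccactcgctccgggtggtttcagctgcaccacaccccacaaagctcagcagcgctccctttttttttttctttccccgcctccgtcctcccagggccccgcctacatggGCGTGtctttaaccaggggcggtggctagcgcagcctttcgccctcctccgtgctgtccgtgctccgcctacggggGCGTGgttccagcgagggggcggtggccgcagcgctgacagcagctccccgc
Pgk1: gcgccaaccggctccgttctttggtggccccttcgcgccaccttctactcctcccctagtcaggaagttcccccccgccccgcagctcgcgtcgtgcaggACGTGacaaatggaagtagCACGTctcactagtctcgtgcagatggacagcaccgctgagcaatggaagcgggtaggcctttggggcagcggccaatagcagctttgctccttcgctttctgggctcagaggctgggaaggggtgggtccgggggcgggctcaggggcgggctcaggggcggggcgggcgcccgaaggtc

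The Pdk4 window held 1 such core, and the Pdk1 and Pgk1 windows shown held 2 each. Pdk1 has a further RefSeq window, chr2:71874654-71874953, which held 0. Over all enzyme genes, 39 of the 49 symbols with a RefSeq window (79.6%) held a core in at least 1 window, against 46.7% of 27025 mouse genes. The enzyme windows were also richer in G and C, with a median of 60.5% against 52.7%. Idh3a and Me2 are not among the matched symbols. The E-box CACGTG, which contains a core, was in 16.3% of the enzyme genes and 8.09% of all genes, and the antioxidant response element core TGACNNNGC in 22.4% and 14.0%. TATAAA was in 2.04% of the enzyme genes against 15.7% of all genes. The forkhead site GTAAACA (2.04% against 4.05%) and the estrogen-related receptor site AAGGTCA (6.12% against 5.38%) were searched as well, on both strands. The Pdk4 window held none of these 5 further motifs. The shares count a gene if any of its windows holds the motif, and the enzyme genes had more windows per gene (74 for 49 symbols, against 32851 for 27025). Per window, the hypoxia response element core was in 74.3% against 43.8%, and CACGTG in 13.5% against 7.15%. TGACNNNGC was in 14.9% of windows against 12.4%, and AAGGTCA in 4.05% against 4.72%.

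The subunits of the pyruvate dehydrogenase complex itself were alike in direction and none passed the test. Pdha1, the catalytic subunit that the kinases phosphorylate, had log2 levels of 3.83 and 4.37 in CD44+ cells and of 4.02 and 3.10 in CD44- cells, a log2 difference of 0.54 ± 0.51. Dld, the dihydrolipoamide dehydrogenase shared with other complexes, had 3.20 and 3.39 in CD44+ cells and 3.45 and 2.21 in CD44- cells. Its log2 difference was 0.47 ± 0.54, and its other probe gave -0.27. Pdhb, the partner of Pdha1, and Dlat, the acetyltransferase, had log2 differences of 0.32 and 0.24. In each of these genes CD44- replicate 2 was the lowest array, while CD44- replicate 1 lay at or above at least 1 CD44+ array.

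**Figure D2:**
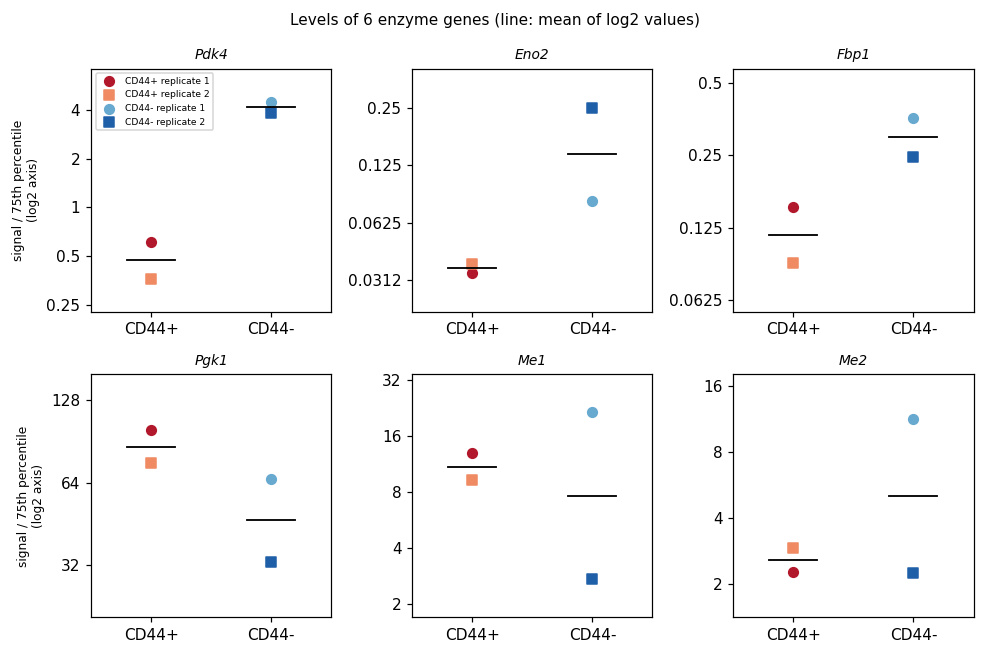
Signal divided by the array's 75th percentile (y axes, log2 scale) on each array for Pdk4, Eno2, Fbp1, Pgk1, Me1 and Me2, with CD44+ left of CD44- and a line at the mean of the log2 values. The groups stand apart for Pdk4, Eno2, Fbp1 and Pgk1, whereas the CD44- arrays lie on either side of the CD44+ arrays for Me1.

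All 19 glycolytic genes with a probe were tested; 15 had a log2 difference above 0, the median was 0.41 and none passed the test. The highest was Pgk1, the phosphoglycerate kinase that makes ATP, with log2 levels of 6.64 and 6.24 in CD44+ cells and of 6.04 and 5.04 in CD44- cells. Both CD44+ arrays were above both CD44- arrays, and the log2 difference was 0.90 ± 0.51 (1.86-fold, limma adjusted p = 0.667), with 0.84 on its other probe. Tpi1, the triose phosphate isomerase, had 6.69 and 6.74 in CD44+ cells and 6.63 and 5.80 in CD44- cells. Pgam1, the phosphoglycerate mutase, had 5.59 and 5.59 in CD44+ cells and 5.43 and 4.74 in CD44- cells. In these genes too the groups did not overlap, yet CD44- replicate 1 lay close to the CD44+ arrays, and the log2 differences were 0.50 ± 0.48 (Tpi1) and 0.51 ± 0.47 (Pgam1).

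Entry of glucose into the pathway depends on hexokinases. Hk2, the inducible hexokinase of many tumours, had log2 levels of 4.39 and 4.75 in CD44+ cells and of 3.72 and 4.41 in CD44- cells, a log2 difference of 0.51 ± 0.48 with overlap. Hk1, the hexokinase of most tissues, had -0.93 and -1.77 in CD44+ cells and -1.51 and -2.11 in CD44- cells, and its probes that were tested, 4 of 5, ranged from -0.43 to 0.46 in log2 difference. Pfkp, the platelet-type phosphofructokinase at the committed step, had 1.88 and 1.09 in CD44+ cells and 1.39 and 0.23 in CD44- cells. Its log2 difference was 0.67 ± 0.56, while the liver type Pfkl and the muscle type Pfkm had 0.05 and -0.37. The bifunctional enzymes Pfkfb2 and Pfkfb3, which set the level of an activator of phosphofructokinase, had log2 differences of 0.03 and -0.05.

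The lower steps of glycolysis showed the same small differences. Gapdh, the glyceraldehyde phosphate dehydrogenase often used as a control gene, had log2 levels of 5.20 and 4.03 in CD44+ cells and of 4.67 and 3.66 in CD44- cells. Its log2 difference was 0.45 ± 0.58, and it became -0.13 without CD44+ replicate 1 and -0.05 without CD44- replicate 2. Pkm, the pyruvate kinase measured by 1 probe, had 3.64 and 2.75 in CD44+ cells and 3.51 and 2.43 in CD44- cells, a log2 difference of 0.22 ± 0.56. Ldha, the lactate dehydrogenase subunit that favours lactate formation, had 6.95 and 6.68 in CD44+ cells and 6.79 and 5.84 in CD44- cells. The groups overlapped, with a log2 difference of 0.50 ± 0.50, while the sister subunit Ldhb was at -0.39. Gpi1 (0.08), the aldolases Aldoa (0.14) and Aldoc (0.41) and the enolase Eno1 (0.42) complete the glycolytic set, all as log2 differences.

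Eno2, the enolase of neurons and neuroendocrine cells, had the lowest log2 difference of the glycolytic genes. Its log2 levels were -4.87 and -4.72 in CD44+ cells and -3.62 and -2.00 in CD44- cells, and it was not well above background on CD44+ replicate 1. The groups did not overlap, with a log2 difference of -1.98 ± 0.59 (limma adjusted p = 0.233). It was -0.45 with normexp background correction, -1.17 without CD44- replicate 2 and -2.79 without CD44- replicate 1. With the replicate number as a block the limma adjusted p was 0.00244, but that fit gives every gene the same variance, so the spread of Eno2 itself does not enter. A further Eno2 probe was well above background on the CD44- arrays and on neither CD44+ array. Beside it, all 10 enteroendocrine markers tested were lower in CD44+ cells, 6 of them past the test, and their summed level was 3.95 and 5.33 times the 75th percentile on the CD44+ arrays against 366 and 781 times on the CD44- arrays. On neither CD44+ array were Scg2 and Neurod1 of that list well above background. In sorted populations, fewer cells of a type and less RNA per cell cannot be told apart, and the part of enteroendocrine cells in the Eno2 and Pdk4 values was not tested.

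The pentose phosphate genes stood out by the gap between the CD44- arrays. G6pdx, the glucose phosphate dehydrogenase that opens the NADPH-forming branch, had log2 levels of 4.26 and 3.81 in CD44+ cells and of 4.34 and 2.62 in CD44- cells, a log2 difference of 0.56 ± 0.62. Pgd, the next NADPH-forming enzyme, had 4.79 and 4.62 in CD44+ cells and 5.25 and 3.40 in CD44- cells. Tkt, the transketolase of the branch that returns carbon to glycolysis, had 5.82 and 5.60 in CD44+ cells and 6.60 and 4.69 in CD44- cells. In these genes the CD44+ arrays lay together between a high CD44- replicate 1 and a low CD44- replicate 2. Taldo1, the transaldolase, had the same order, and in Pgls, the phosphogluconolactonase, both CD44+ arrays (3.65 and 3.61) were above both CD44- arrays (3.54 and 3.05). The 5 genes had log2 differences of 0.06 to 0.56, with a median of 0.33, and a further probe of Pgd gave -0.17.

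Of the 13 TCA cycle genes tested, 12 had a log2 difference above 0, the median was 0.39 and none passed the test. Idh1, the cytosolic NADP-dependent isocitrate dehydrogenase, had log2 levels of 0.85 and -0.34 in CD44+ cells and of 0.46 and -1.74 in CD44- cells, so its log2 difference of 0.89 ± 0.76 rests on overlapping groups. Idh3a, a subunit of the NAD-dependent enzyme of the cycle, had 3.70 and 4.44 in CD44+ cells and 3.87 and 2.89 in CD44- cells (0.69 ± 0.53). Fh1, the fumarate hydratase, had 5.07 and 5.58 in CD44+ cells and 5.34 and 4.26 in CD44- cells (0.53 ± 0.53). Suclg1, the shared subunit of succinyl-CoA ligase, had 4.26 and 4.30 in CD44+ cells and 4.80 and 2.85 in CD44- cells (0.46 ± 0.65). Cs, the citrate synthase that opens the cycle, had 6.90 and 7.20 in CD44+ cells and 7.32 and 6.39 in CD44- cells (0.20 ± 0.50).

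The other TCA genes had log2 differences of -0.18 to 0.45. They were the aconitase Aco1 (0.35), the mitochondrial NADP-dependent Idh2 (-0.18), Idh3g (0.42), the oxoglutarate dehydrogenase Ogdh (0.35), the succinyl-CoA ligase subunits Sucla2 (0.38) and Suclg2 (0.45), and the malate dehydrogenases Mdh1 (0.39) and Mdh2 (0.30). In all 13 the lowest of the 4 arrays was CD44- replicate 2. Only in Idh3g was CD44- replicate 1 also below both CD44+ arrays, with 5.76 and 5.86 in CD44+ cells and 5.62 and 5.16 in CD44- cells.

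Malic enzymes and enzymes of gluconeogenesis had the widest gap between the CD44- arrays. Me1, the cytosolic malic enzyme that makes NADPH, had log2 levels of 3.69 and 3.22 in CD44+ cells and of 4.43 and 1.44 in CD44- cells, so the CD44+ arrays lay between the CD44- arrays. The log2 difference of 0.52 ± 0.87 became -0.97 without CD44- replicate 2 and 2.02 without CD44- replicate 1. Me2, the mitochondrial malic enzyme, had 1.18 and 1.54 in CD44+ cells and 3.49 and 1.17 in CD44- cells. It was high on CD44- replicate 1 alone, also with its other probe (-0.84 and -1.09 in CD44+ cells, 1.25 and -1.30 in CD44- cells), and its log2 difference was -0.97 ± 0.73, or 0.19 without that array.

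The fructose bisphosphatases, which oppose phosphofructokinase, lay on either side of 0. Fbp1, the liver-type enzyme, had log2 levels of -2.72 and -3.49 in CD44+ cells and of -1.48 and -2.03 in CD44- cells. The groups did not overlap, and the log2 difference was -1.35 ± 0.49 (2.55-fold lower, limma adjusted p = 0.341). Fbp1 was dim, with processed signals of 37 and 44 in CD44+ cells and of 146 and 129 in CD44- cells. With normexp background correction its log2 difference was -0.63. Fbp2, the muscle-type enzyme, had 2.32 and 1.47 in CD44+ cells and 2.69 and -0.40 in CD44- cells, with a log2 difference of 0.75 ± 0.91 that became -0.79 without CD44- replicate 2. Pck2, the mitochondrial phosphoenolpyruvate carboxykinase, had 1.84 and 1.73 in CD44+ cells and 1.14 and 1.34 in CD44- cells, a log2 difference of 0.55 ± 0.44 without overlap. Pcx, the pyruvate carboxylase that refills the cycle, had a log2 difference of 0.01.

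**Figure D3:**
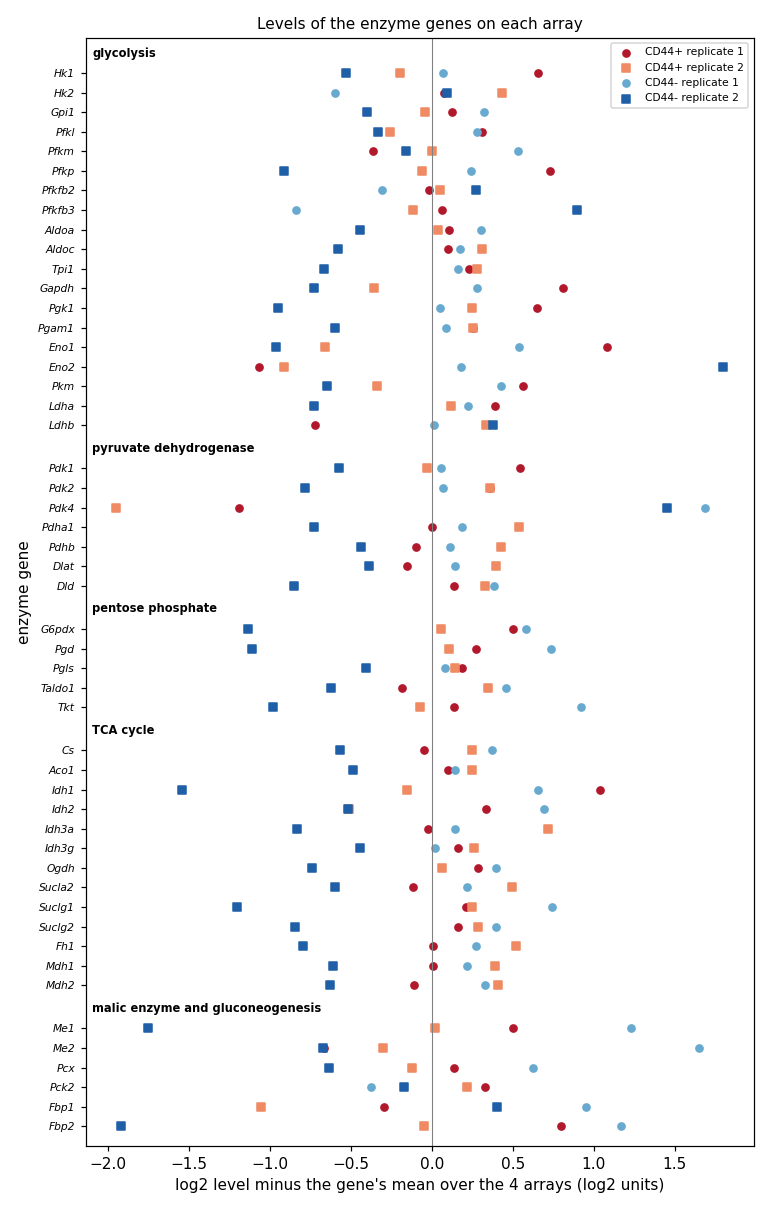
Log2 level of each of the 50 enzyme genes on each array, minus the gene's mean over the 4 arrays (x axis, log2 units), grouped by pathway on the y axis, with CD44+ arrays in red tones and CD44- arrays in blue tones. The squares of CD44- replicate 2 lie furthest left for 41 of the 50 genes, and Pdk4 is the gene whose CD44+ arrays lie furthest left of its CD44- arrays.

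Across the pathways, the gap between the CD44- arrays was larger than the difference between the groups. CD44- replicate 2 was below CD44- replicate 1 for 44 of the 50 genes, against 58.8% of all genes tested, and at least 2-fold below it for 20, against 9.3% of all genes. It was the lowest of the 4 arrays for 41 genes, against 43.2% of all genes, and below both CD44+ arrays for 42, against 49.4%. CD44- replicate 1 was below both CD44+ arrays for 10 genes, against 30.9% of all genes, and above both for 20, against 28.9%. It was the highest array for 19, against 16% of all genes, while CD44- replicate 2 was above both CD44+ arrays for 6, against 29.6%. Against CD44- replicate 2 alone the median log2 difference of the 50 genes was 0.78, with 43 above 0, and against CD44- replicate 1 alone it was -0.16, with 19 above 0. The median difference between the CD44- arrays, replicate 2 minus replicate 1, was -0.89 for the enzyme genes and -0.15 for all genes. It was -0.72 for glycolysis, -0.63 for pyruvate dehydrogenase, -1.72 for pentose phosphate, -0.98 for the TCA cycle and -1.79 for malic enzymes and gluconeogenesis.

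Markers of other cell types also parted the CD44- arrays. Endothelial markers (8 tested) summed to 1.22 and 2.01 times the 75th percentile on the CD44+ arrays against 6.23 and 111 times on the CD44- arrays. Parietal markers (4 tested) summed to 0.73 and 0.76 times against 2.38 and 23.3 times, and smooth muscle markers (6 tested) to 9.17 and 8.86 times against 12.6 and 46.5 times, in the same order. Most of the parietal sum on CD44- replicate 2 came from Atp4b (log2 level 4.37). Slc9a4, a further parietal marker, was lower on that array (-1.77) than on CD44- replicate 1 (-0.62). Epithelial markers (7 tested) summed to 2166 and 1553 times on the CD44+ arrays against 1970 and 845 times on the CD44- arrays. Most of that sum came from Krt8, Krt18 and Krt19. Of the 7 epithelial markers, 6 were higher in CD44+ cells, 4 of them without overlap of the groups (Cldn7, Epcam, Cdh1 and Krt18). Cldn4 was lower without overlap (log2 difference -2.19), and none of the 7 passed the test. All 10 fibroblast markers and 7 of the 8 endothelial markers were lower in CD44+ cells, and none of either list passed the test. Their part in the enzyme values was not tested. Without CD44- replicate 2 the Pdk4 log2 difference was -3.26. Of the 10 squamous markers tested, 9 were lower in CD44+ cells without overlap of the groups, and Ivl was higher, also without overlap. The 10 markers summed to 19.8 and 3.17 times on the CD44+ arrays against 347 and 632 times on the CD44- arrays. The part of squamous cells in the Pdk4 value was not tested. All 6 mast cell markers tested were higher in CD44+ cells, 4 of them at least 2-fold without overlap. Mcpt1 passed the test (limma adjusted p = 0.0478). Of 9 leukocyte markers, 6 were higher and 3 lower in CD44+ cells, and Cd53 passed the test as higher (limma adjusted p = 0.0241).

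**Figure D4:**
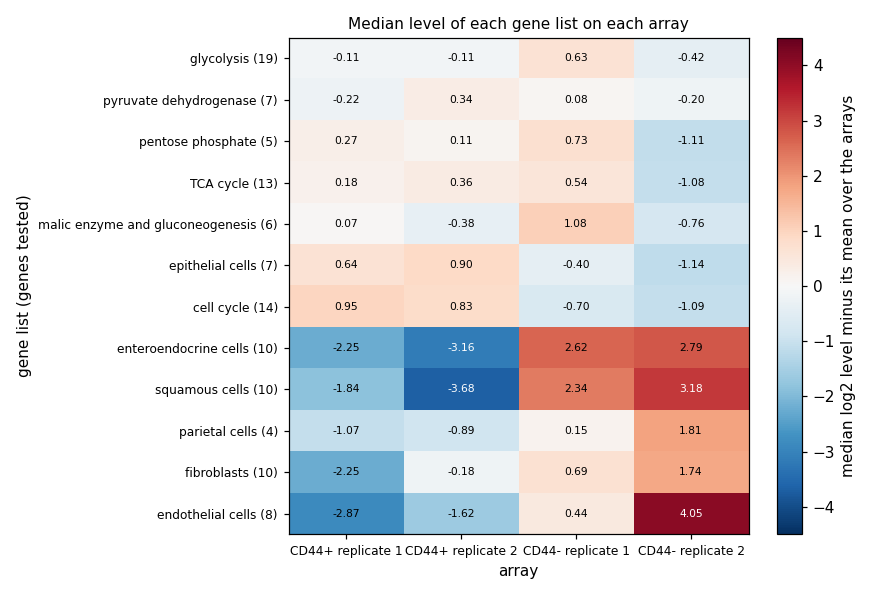
Median log2 level of each pathway and marker list on each array (columns), minus its mean over the 4 arrays, as colour and printed value; the number of genes tested stands beside each list (rows). The pathways other than pyruvate dehydrogenase are lowest on CD44- replicate 2, where fibroblast, endothelial and parietal markers are high. For pyruvate dehydrogenase the median log2 level was 1.93 on CD44+ replicate 1 and 1.94 on CD44- replicate 2, before the mean was subtracted. The latter is the value of Pdk4, and gene by gene CD44- replicate 2 was the lowest array for 6 of these 7 genes. A median can fall on a different gene on each array, so it need not follow the differences of single genes.

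Ratios of sister genes within an array do not depend on how arrays are scaled, and 14 such pairs were compared. The log2 ratio of Pdk4 to Pdk2 was 1.31 and 0.55 in CD44+ cells and 4.48 and 5.10 in CD44- cells, a 14.6-fold lower ratio in CD44+ cells. That of Fbp2 to Fbp1 was 5.04 and 4.96 in CD44+ cells and 4.17 and 1.63 in CD44- cells, 4.30-fold higher in CD44+ cells. That of Me1 to Me2 was 2.52 and 1.68 in CD44+ cells and 0.93 and 0.27 in CD44- cells (2.82-fold higher). In the malic enzymes the ratio thus parted the groups while neither gene did alone, and the same held for Idh1 to Idh2, at 1.36 and 1.02 in CD44+ cells against 0.62 and -0.37 in CD44- cells (2.10-fold higher). The ratios of Pfkp to Pfkl and of Aldoc to Aldoa did not overlap either, with log2 differences of 0.62 and 0.27. The groups overlapped for the other 8 pairs, among them Ldha to Ldhb (0.90), Hk2 to Hk1 (0.05) and Mdh1 to Mdh2 (0.09). Eno2 to Eno1 overlapped as well, at -5.41 and -3.52 in CD44+ cells against -3.62 and -0.50 in CD44- cells (log2 difference -2.40). With 2 arrays against 2, the exact two-sided permutation test cannot go below p = 0.333, which all 6 non-overlapping pairs reached (adjusted p = 0.778 over the 14 pairs), so none can be called different.

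**Figure D5:**
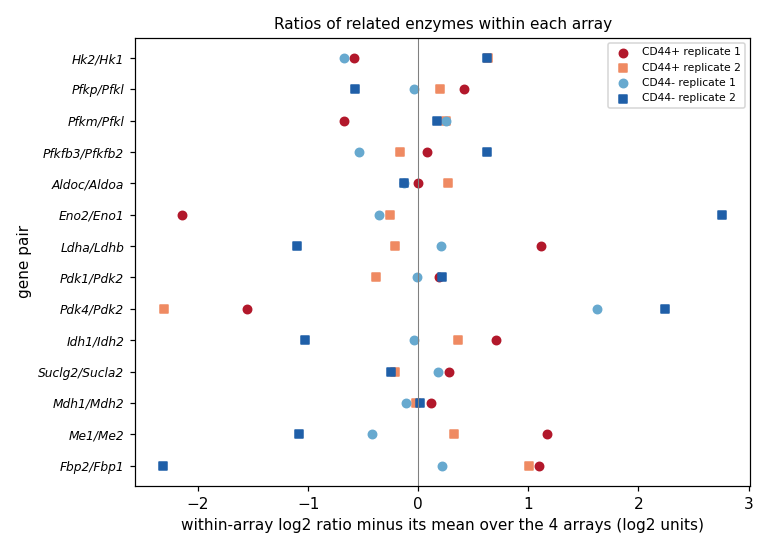
Log2 ratio of each of 14 pairs of sister enzyme genes on each array, minus the pair's mean over the 4 arrays (log2 units), with CD44+ arrays in red tones and CD44- arrays in blue tones. Pdk4 to Pdk2 is low in CD44+ cells, and Fbp2 to Fbp1 and Me1 to Me2 are high.

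Other enzymes of the same pathways, 40 listed and 31 tested, gave a like picture. Their log2 differences were above 0 for 24 and below 0 for 7, with a median of 0.38, and none passed the test. Hkdc1, a hexokinase-like gene, had log2 levels of 2.85 and 3.18 in CD44+ cells and of 1.00 and 2.37 in CD44- cells, a log2 difference of 1.33 ± 0.56 (adjusted p = 0.440). Bpgm, which makes the bisphosphoglycerate that lowers the oxygen affinity of haemoglobin, had 3.60 and 3.88 in CD44+ cells and 2.74 and 2.89 in CD44- cells (0.93 ± 0.44, adjusted p = 0.538). For 19 of the 31 genes the lowest array was CD44- replicate 2.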

How the data were processed

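RNA of 4 sorted samples, amplified from little material per the labels' protocols, was hybridised to 4 one-colour Agilent arrays, which lie on 1 slide. The authors deposited 1 scanner table per array: its processed signal is an intensity after background subtraction, per the file headers, and its raw median signal and background are intensities as well. The 0 or 1 flags come from the authors' software, Agilent Feature Extraction (version 10.1.1.1 per the file headers, 9.5 per the submitters' processing notes). The authors' deposited value table was read as a linear ratio of each probe to its median over the arrays, and served as an alternative. For probes with a signal above 200 on every array, its differences between arrays matched those of the scanner values up to a constant per array. That comparison cannot show which divisor each probe had.

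Control spots and outlier-flagged spots (109 to 133 per array) were left out, spots of a probe were averaged, and log2 signal minus the array's 75th percentile over probes was analysed. Probes were named by matching accessions to mouse RefSeq genes (24375 of 41174 probes). Probes were tested where both arrays of either group flagged them as well above background, and a gene was its brightest probe, which left 21045 genes. For 21 of the enzyme genes there were several probes. Tested probes of Dld, Pgd, Hk1 and Pfkfb2 differed in sign. Cross-hybridisation with near-identical copies of such genes was not tested. Groups were compared with limma 3.58.1 (lmFit, eBayes) in R 4.3.3, adjusting p by Benjamini-Hochberg over all genes, with a threshold of 0.05. The code was tested on simulated data. Ratios of 14 gene pairs were compared by exact permutation tests.

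The enzymes, pairs and lists were chosen with earlier results of these data known. All enzyme genes are named. Values on every array are given for those that passed the test, for the 24 with the largest absolute difference, and for Hk2, Pfkp, Gapdh, Pkm, Ldha, G6pdx, Pdk4, Cs, Idh1 and Fbp1, 26 in all; of each further list, for up to 4 genes with the smallest adjusted p. Some genes of these further lists are not reported here. Further array values, of Pgd, Tkt, Pgls and Idh3g, were chosen after they were seen. Alternatives were other scalings, normexp background correction (on the median signal, offset 50), other filters, the mean of probes, a replicate block and leaving out each array. A 75th percentile over spots was added after seeing the data. Few arrays limit the precision.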

Additional observations from a re-analysis of the deposited data

How the results depend on the processing

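The Pdk4 log2 difference stayed between -3.53 and -2.75 under all 13 alternatives, and its adjusted p was past the threshold in 9 of them (range 6.32e-08 to 0.224). It missed it with no filter on dim probes (0.173), with quantile normalization (0.123) and without either CD44+ array (0.200 and 0.224). Enzyme genes called, 1 as reported, numbered 0 with no filter and 0 with quantile normalization, and 0 to 4 with 1 array left out. Without CD44- replicate 1 the calls were Pdk4, Eno2 (adjusted p = 0.00184), Fbp2 (0.0176) and Me1 (0.0474); the spread there comes from the CD44+ arrays and from the variance shared over genes. All genes called, 84 as reported, numbered 753 with the authors' values, 748 with median scaling, 540 with normexp, 24 with no filter, 6 with quantile normalization and 2 to 1569 with 1 array left out. The causes were not tested. Median scaling moved the median difference of all genes from 0.16 to 0.26, a shift of 0.11.

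The median over the enzyme genes was -0.16 to 0.78 with 1 array left out, and -0.16 without CD44- replicate 2. Enzyme genes with at least a 2-fold difference and no overlap, 3 as reported, numbered 1 with normexp and 4 to 19 with 1 array left out. Ratios without overlap, 6 as reported, numbered 5 with normexp, 7 with quantile normalization and 9 to 11 with 1 array left out. Of 337 values of named enzyme genes under alternatives, 316 kept direction and side of the threshold, 4 lost the call, 4 gained it and 13 changed sign. The sign changed for Gapdh (-0.13) and Pkm (-0.23) without CD44+ replicate 1 and for Me2 (0.19) without CD44- replicate 1. Without CD44- replicate 2 it changed for Cs, Dld, Fbp2, Fh1, G6pdx, Gapdh, Idh1, Me1, Pkm and Suclg1. With 1 array left out, log2 differences ranged from -0.27 to 0.66 for Cs, -0.15 to 1.09 for Dld, -0.79 to 2.30 for Fbp2, -0.011 to 1.06 for Fh1, -0.30 to 1.42 for G6pdx, -0.13 to 1.03 for Gapdh, -0.21 to 1.99 for Idh1, -0.97 to 2.02 for Me1, -2.14 to 0.19 for Me2, -0.32 to 0.76 for Pkm and -0.51 to 1.43 for Suclg1; Gapdh was -0.05 without CD44- replicate 2.

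With the replicate number as a block, 1829 of all genes and 2 enzyme genes, Pdk4 and Eno2 (adjusted p = 0.00244), were called. That limma fit gave every gene the same variance, so the spread of a single gene does not enter its p-values. The smallest Pdk4 adjusted p, 6.32e-08, came from this fit. With normexp too, limma gave every gene the same variance, and the Pdk4 adjusted p there was 5.10e-06. The alternatives rest on the same arrays and are not independent. The authors' values and median scaling, for example, gave Pdk4 limma adjusted p of 0.00225 and 0.00237. Deviations of same-numbered arrays correlated at 0.347, over 2 pairs only, which does not settle whether the numbers pair the arrays. A slide block was not run, since all arrays lie on 1 slide.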

Other observations

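Of 16 tested genes of the hypoxia response, factor subunits and induced genes, 5 had a log2 difference above 0 (60.6% of all genes tested) and 11 below, with a median of -0.15, and none passed the test in limma. Slc2a1, the glucose transporter that supplies glycolysis, had log2 levels of 4.13 and 4.38 in CD44+ cells and of 5.12 and 6.16 in CD44- cells, so the groups did not overlap (log2 difference -1.39 ± 0.51, adjusted p = 0.344). Ndrg1, a stress-induced gene, had a log2 difference of -0.92, and Adm (adrenomedullin) and Hif1a, the hypoxia-inducible factor subunit, each had -0.77. Of 9 regulators of mitochondrial biogenesis, 6 were above 0 and 3 below, with a median of 0.12 and none called.

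The NRF2 list holds the factor Nfe2l2, which induces NADPH-forming and thiol genes under oxidative stress, its inhibitor Keap1 and targets. CD44- replicate 1 was the highest array for 6 of the 9 genes (16% of all genes tested), and CD44- replicate 2 was at least 2-fold below it for 5 (9.3% of all genes). Their median log2 difference was -0.22, with 2 above 0 and 7 below, and none passed the test. Txnrd1, the thioredoxin reductase, was highest on CD44+ replicate 1 and had log2 levels of 4.35 and 4.26 in CD44+ cells and of 4.23 and 3.21 in CD44- cells. Srxn1, the sulfiredoxin, was also highest there and had 3.90 and 3.52 in CD44+ cells and 3.72 and 2.52 in CD44- cells. Hmox1, the haem oxygenase, was highest on CD44- replicate 2, with 0.26 and 0.36 in CD44+ cells and 0.41 and 1.37 in CD44- cells. Slc7a11, the cystine transporter subunit, was well above background on neither CD44+ array. The 14 cell cycle genes tested were all above 0, with a median log2 difference of 1.98 and none past the adjusted threshold.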
